A study of Mus musculus with 2 samples.

Results

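The LIF, gp130 and STAT3 signalling genes are 7 genes of one signalling chain, *Lif*, *Lifr*, *Il6st*, *Jak1*, *Jak2*, *Stat3* and *Socs3*. They were chosen by symbol, and all 7 were found among the 29311 genes for which both samples have a value. Total RNA was measured in mouse embryonic stem (ES) cells and in mouse embryonic forebrain at E10.5, referred to as forebrain, with 1 library for each and hence no replicates. The ES cells were of the E14 line with a wild-type genotype and were cultured without feeder cells, in medium that contained serum and LIF. The forebrain was dissected from wild-type B6CBAF1/J embryos, and the methods state that its RNA was taken from single embryos, without saying how many of them entered the library. Age, strain, culture and the presence of LIF in the medium therefore all differ between the samples and cannot be told apart. Each value below describes 1 library, and no difference was checked against the spread between replicates.

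LIF is a secreted cytokine of the interleukin-6 family. It binds its own receptor chain, encoded by *Lifr*, which then pairs with gp130, the shared signalling chain of the family encoded by *Il6st*. JAK kinases bound to both chains phosphorylate them, STAT3 docks on the phosphorylated chains, is itself phosphorylated and enters the nucleus, and SOCS3, whose gene is a direct target of STAT3, binds gp130 and the kinases and shuts the signal off. In mouse ES cells this chain is known for sustaining self-renewal in culture, whereas in the developing nervous system the same family is known for promoting the formation of astrocytes at later stages.

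The expression value is the RPKM that the authors deposited, a number of reads per kb of exon with a scaling for each library. Values of short genes lie near whole multiples of a step, which was taken as the contribution of 1 read and used to infer reads per gene. The reads inferred on all genes summed to 42735908 for ES cells and to 59787772 for forebrain. The deposited values are 52.2 times and 49.0 times, respectively, those of an RPKM calculated from these totals, so they are not to be compared with RPKM from other sources. The interval in parentheses after a value is the exact 95% Poisson interval of its inferred reads, and intervals of ratios are exact conditional binomial intervals (Clopper-Pearson). Both cover counting error only and say nothing about variation between embryos or cultures.

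The labels were checked against marker genes. All 10 markers of ES cells were at least 2-fold higher in the ES cell library, with *Pou5f1*, the central pluripotency factor, at an RPKM of 11243.84 compared with 42.9. Of 10 markers of forebrain neuroepithelium, 9 were at least 2-fold higher in the forebrain library, among them *Nes*, which encodes the progenitor filament protein nestin, at 4127.24 compared with 182.9. *Sox2*, which both cell types use, was 2.76-fold higher in ES cells (7181.95 and 2602.06). The forebrain library also held RNA of other cell types. The RPKM of 8 markers of primitive red blood cells summed to 799500 compared with 407.8 in ES cells, that of 9 markers of head mesenchyme to 19620 compared with 102.2, and that of 8 endothelial markers to 2989 compared with 685.9. Of 7 myeloid markers, 5 were at least 2-fold higher in forebrain, 1 in ES cells and 1 was within 2-fold. Their sums were 850.2 in forebrain and 619.3 in ES cells, of which *Cd68* made up 70.7 and 394.82, and *Ptprc* and *Tyrobp* were at 0 in ES cells, where 3 reads would give 0.63 and 6.5. Of 8 markers of differentiated cells that can arise in ES cell cultures, 4 were at least 2-fold higher in ES cells and 4 in forebrain. The 3 with the highest values were *T* (Brachyury), at 1112.09 in ES cells and 2.66 in forebrain, *Cdx2*, at 271.6 and 0, and *Eomes*, at 90.06 and 233.7. The part of these other cells in the values below was not tested, and in bulk RNA fewer cells of a type and less RNA per cell cannot be told apart.

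Of the 7 genes, 4 were at least 2-fold higher in ES cells (*Lif*, *Lifr*, *Stat3* and *Socs3*), 2 were at least 2-fold higher in forebrain (*Jak1* and *Jak2*) and *Il6st* differed by 1.01-fold. The ligand, its specific receptor, the transcription factor and the feedback inhibitor were thus on one side and both kinases on the other. A difference of this size was common in these data. Counted on log2(RPKM + 1), which makes the difference of genes with low values too small, 23.3% of all listed genes were at least 2-fold higher in ES cells, 25.8% in forebrain and 49.1% in either direction. Among the 16413 protein-coding genes with at least 10 reads in either sample, these shares were 17.9%, 30.7% and 48.6%. The median log2 ratio (ES cells to forebrain) of the 7 genes was 2.37, compared with -0.01 over all listed genes and -0.23 over those protein-coding genes. No test was made, since each sample type has 1 library.

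**Figure D1:**
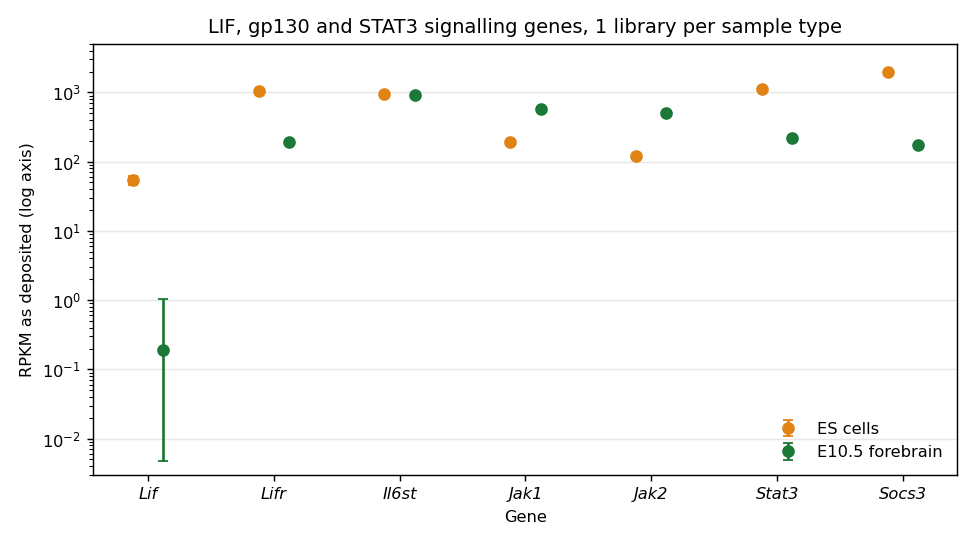
RPKM as deposited (log axis) of the 7 genes in ES cells (orange) and forebrain (green), with 1 library each; error bars show the exact 95% Poisson interval of the inferred read number and are hidden by the points where they are narrow. *Lif*, *Lifr*, *Stat3* and *Socs3* lie higher in ES cells, *Jak1* and *Jak2* lie higher in forebrain, and the points of *Il6st* are level at 932.94 and 922.68.

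*Lif* itself (ENSMUSG00000034394, chromosome 11, 4157560 to 4172517, plus strand, mm9) encodes the ligand. Its RPKM was 53.82 in ES cells, from 192 reads (46.6 to 62.1), and 0.19 in forebrain, from 1 read (0.00477 to 1.05). It was the lowest of the 7 genes in both libraries, at percentile 51.0 of the listed genes in ES cells and at percentile 8.83 in forebrain. The ratio of the values was 283, with an interval of 50.8 to 11400 that is wide because it rests on a single forebrain read. The forebrain value lay below the level of 3 reads, an RPKM of 0.565, which was taken as the limit of detection. The ES cell library contained *Lif* transcripts at 0.0512 times the value of *Lifr* (0.0442 to 0.0592). LIF was also present in the culture medium as protein, which RNA-seq does not measure.

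*Lifr* (ENSMUSG00000054263, chromosome 15, 7079559 to 7147489, plus strand) encodes the chain that recognizes LIF. It had an RPKM of 1051.31 in ES cells from 8886 reads (1030 to 1070), at percentile 87.1 of the listed genes. In forebrain the RPKM was 191.68 from 2417 reads (184 to 199), at percentile 63.2. The value was 5.48-fold higher in ES cells (5.24 to 5.74), a ratio exceeded by 7.18% of the protein-coding genes with at least 10 reads.

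*Il6st* (ENSMUSG00000021756, chromosome 13, 113265216 to 113297068, plus strand), which encodes gp130, did not share this difference. Its RPKM was 932.94 in ES cells, from 3975 reads (904 to 962), and 922.68 in forebrain, from 5866 reads (899 to 947). The ratio was 1.01, with an interval of 0.971 to 1.05, and its direction depended on the scaling of the libraries, with log2 ratios from -0.26 to 0.5. The gene lay at percentiles 85.9 and 86.7, respectively, and was the most highly expressed of the 7 genes in forebrain. The balance of both receptor chains differed as a result. In ES cells *Lifr* had 1.13 times the RPKM of *Il6st* (1.09 to 1.17), whereas in forebrain it had 0.208 times (0.198 to 0.218), which leaves *Il6st* 4.81 times as high as *Lifr*.

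*Jak1* (ENSMUSG00000028530, chromosome 4, 100824972 to 100937887, minus strand) encodes the kinase on which signalling through gp130 mainly depends. Its RPKM was 190.47 in ES cells from 1126 reads (179 to 202) and 569.12 in forebrain from 5022 reads (554 to 585), so that it was 2.99-fold higher in forebrain (2.8 to 3.19). *Jak2* (ENSMUSG00000024789, chromosome 19, 29326318 to 29387570, plus strand) encodes a related kinase that also serves the receptors of erythropoietin and other cytokines. It had 119.78 in ES cells from 493 reads (109 to 131) and 499.92 in forebrain from 3070 reads (482 to 518), a 4.17-fold difference (3.79 to 4.6). Both kinases were in the middle of the range of listed genes in ES cells, at percentiles 65.4 and 59.9, and higher in forebrain, at percentiles 79.9 and 77.9. Among the protein-coding genes with at least 10 reads, 22.4% had a lower ratio of ES cells over forebrain than *Jak1* and 17.5% a lower ratio than *Jak2*. Most markers of the forebrain neuroepithelium and of the other cell types described above were also at least 2-fold higher in forebrain. These were 9 of 10 for neuroepithelium, 8 of 8 for red blood cells and 9 of 9 for head mesenchyme. For endothelium they were 7 of 8 and for myeloid cells 5 of 7. The endothelial exception was *Pecam1*, at 551.14 in ES cells and 316.51 in forebrain. The direction of these lists does not show which cells held the kinase transcripts. The part of each cell type in the kinase values was not tested.

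*Stat3* (ENSMUSG00000004040, chromosome 11, 100746412 to 100800854, minus strand) encodes the transcription factor of the chain. Its RPKM was 1120.81 in ES cells, from 8737 reads (1100 to 1140), and 216.27 in forebrain, from 2516 reads (208 to 225). It was thus 5.18-fold higher in ES cells (4.96 to 5.42), a ratio close to that of *Lifr*, and 7.5% of the protein-coding genes with at least 10 reads had a higher one. Exons of *Stat3* overlap those of *Stat5a* on the opposite strand over 72 bases, or 0.756% of the exonic length of *Stat3*. The strand setting of the counting is not given in the sources used here, but *Stat5a* had only 34.74 and 95.6. *Stat3* lay at percentile 87.7 of the listed genes in ES cells and at percentile 64.8 in forebrain.

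*Socs3* (ENSMUSG00000053113, chromosome 11, 117827393 to 117831361, minus strand) encodes the feedback inhibitor. It had the highest RPKM of the 7 genes in ES cells, 1992.41 from 4713 reads (1940 to 2050), at percentile 92.8 of the listed genes. In forebrain the RPKM was 171.69 from 606 reads (158 to 186), at percentile 61.7. The 11.6-fold difference (10.7 to 12.7) was the largest after that of *Lif*, and it was exceeded by 4.13% of the protein-coding genes with at least 10 reads. Relative to *Stat3*, the value of *Socs3* was 1.78 times as high in ES cells (1.72 to 1.84) and 0.794 times as high in forebrain (0.725 to 0.868).

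Since *Socs3* is known as a direct target of STAT3, the promoters of the 7 genes were searched for the letters TTCNNNGAA. STAT dimers are known to recognize this pattern, which reads alike on both strands. Windows from 250 bases before to 50 bases after the start of transcription were taken from RefSeq on build GRCm38.p6, which differs from the build of the expression tables. All 7 genes had a window, and *Lifr* had more than 1. The letters were found in 1 of the 8 windows, that of *Socs3*, once, beginning 154 bases before the start, as TTCTTAGAA. None of the 11 windows found for 9 of the 12 LIF and STAT3 response genes described further on held them. They were present in 8.3% of 32851 promoter windows of the same length. A match in 1 of 8 windows therefore does not set the 7 genes apart, and such a match does not show binding. The 250 bases before the start of *Socs3* (chr11:117969367-117969616, GRCm38.p6, minus strand) are shown 5′ to 3′ because they hold this match, which is in capitals.
Socs3: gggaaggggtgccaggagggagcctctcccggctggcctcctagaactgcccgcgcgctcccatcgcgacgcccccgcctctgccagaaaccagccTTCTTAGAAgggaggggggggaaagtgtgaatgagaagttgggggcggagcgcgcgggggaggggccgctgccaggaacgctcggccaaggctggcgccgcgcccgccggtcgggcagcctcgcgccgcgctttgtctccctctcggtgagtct

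**Figure D2:**
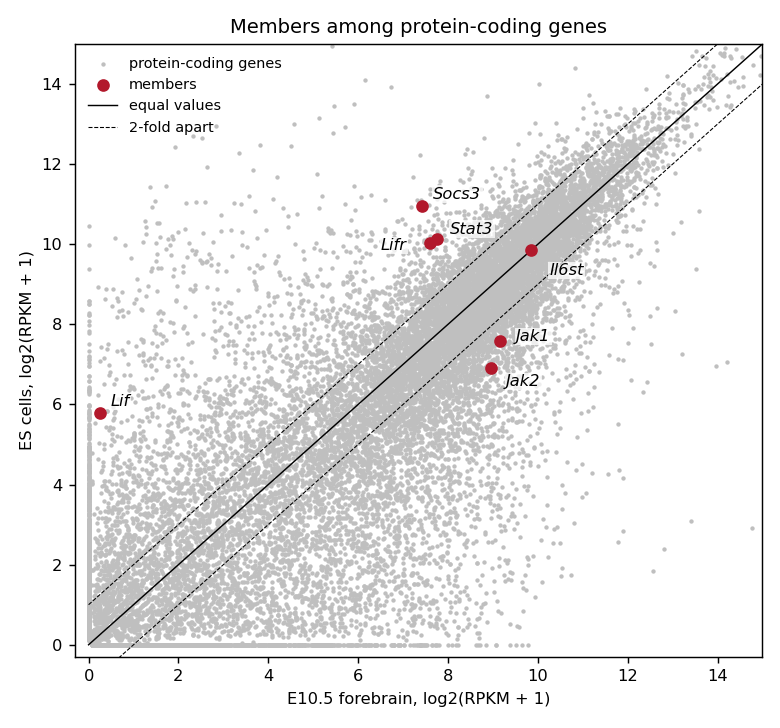
Each grey point is a protein-coding gene, by log2(RPKM + 1) in forebrain (horizontal axis) and in ES cells (vertical axis), and the 7 genes are in red; the solid line marks equal values, the dashed lines 2-fold differences, and 19 genes beyond 15 on either axis are not drawn. *Lif*, *Lifr*, *Stat3* and *Socs3* lie above the upper dashed line, *Il6st* lies on the line of equal values, and *Jak1* and *Jak2* lie below the lower dashed line.

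The order of the 7 genes differed between the libraries. From the highest RPKM to the lowest, it was *Socs3*, *Stat3*, *Lifr*, *Il6st*, *Jak1*, *Jak2* and *Lif* in ES cells, and *Il6st*, *Jak1*, *Jak2*, *Stat3*, *Lifr*, *Socs3* and *Lif* in forebrain. By rank among all listed genes, counted from the highest RPKM, *Socs3* was at 2113 in ES cells and 11219 in forebrain, *Stat3* at 3595 and 10310, and *Lifr* at 3788 and 10786. *Il6st* was at 4146 and 3884, *Jak1* at 10133 and 5879, *Jak2* at 11762 and 6471, and *Lif* at 14351 and 26693. The closest neighbours in ES cells were *Stat3* and *Lifr*, 1.07-fold apart (1.03 to 1.1), and those in forebrain were *Lifr* and *Socs3*, 1.12-fold apart (1.02 to 1.22). These intervals cover counting error alone, so that neighbours this close cannot be ordered with regard to replicates. *Socs3*, *Stat3*, *Lifr* and *Il6st* formed a high group in ES cells, separated from *Jak1* by a 4.9-fold step (4.58 to 5.24). The levels of different genes, and with them the order and the steps between neighbours given here, also depend on the length assigned to them. The merged exons of *Stat3* measure 9527 bases over 14 annotated transcripts and those of *Jak1* 7227 bases over 8, whereas their longest coding transcripts measure 6042 and 4906 bases, respectively.

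The 7 genes were then set beside the other members of their families. The summed RPKM of 9 receptor genes of the gp130 family was similar in both libraries, at 2226.12 in ES cells and 2313.65 in forebrain, but its makeup was not. In ES cells *Lifr* contributed 47.2% and *Il6st* 41.9%, and the interleukin-6 receptor gene *Il6ra* followed with 5.88%. In forebrain *Il6st* contributed 39.9% and *Lifr* 8.28%, while *Cntfr* reached 7.78%. *Cntfr* encodes the receptor of ciliary neurotrophic factor. Its RPKM was 180.04 in forebrain and 13.17 in ES cells, 13.7-fold apart (9.48 to 20.4). Conversely, *Il6ra* was 12.9-fold higher in ES cells (9.22 to 18), at 130.92 compared with 10.17. *Il11ra1* had 124.3 in forebrain and 7.65 in ES cells, and *Il11ra2* had 131.14 and 7.06, but they are close copies of each other, and reads may have been split between them. *Osmr* was low in both libraries, with 4.29 and 3.9. Of the 7 receptor genes other than *Lifr* and *Il6st*, 2 were at least 2-fold higher in ES cells and 4 in forebrain. Over all listed genes these shares were 23.3% and 25.8%.

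Among 9 other ligands of the family, 3 were at least 2-fold higher in ES cells and 1 in forebrain, with a median log2 ratio of 0.44. Of all listed genes, 23.3% and 25.8% were, and their median was -0.01. *Osm*, which encodes oncostatin M, another cytokine of the family, resembled *Lif* in its values. Its RPKM was 152.61 in ES cells from 284 reads and 0.72 in forebrain from 2 reads, a ratio of 212 (58.1 to 1760). The forebrain value lay below the limit of detection, so the size of this ratio is uncertain. *Clcf1*, which encodes a ligand of the receptor for ciliary neurotrophic factor, had 0.99 from 3 reads in ES cells and 10.59 from 48 reads in forebrain, where it was 10.7-fold higher (3.46 to 53.8). The ES cell value of *Clcf1* was at the limit of detection, so the size of its ratio is uncertain. *Clcf1* and *Cntfr* were both higher in forebrain. The other ligands higher in ES cells were *Il11* and *Il6*, which rested on at most 8 reads in either library.

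The JAK family had a summed RPKM of 805.84 in ES cells and 1247.94 in forebrain, a 1.55-fold higher sum in forebrain. *Jak1* and *Jak2* held 45.6% and 40.1% of it in forebrain. In ES cells they held 23.6% and 14.9%, while *Tyk2* held 34.9% and *Jak3* 26.6%. *Jak3*, a kinase best known from lymphocytes, had 214.4 in ES cells and 26.75 in forebrain, 8.01-fold apart (6.81 to 9.47), and *Tyk2* had 281.19 and 152.15, 1.85-fold apart (1.69 to 2.02). The kinases thus differed in opposite directions. With the length of the longest coding transcript in place of all merged exons, *Jak1* and *Tyk2* each held 29.3% in ES cells and *Jak3* 28.9%, so the order of these 3 genes in ES cells depended on the length used.

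The STAT family summed to 2256.48 in ES cells and to 1313.24 in forebrain, with *Stat3* at 49.7% and 16.5%. In ES cells *Stat3* was the highest by a wide margin, followed by *Stat6* with 27.0%. In forebrain *Stat2* (19.8%), *Stat5b* (19.5%) and *Stat3* itself had the highest shares, and *Stat3* became the highest, at 21.6%, with the length of the longest coding transcript. *Stat6*, the mediator of interleukin-4 signals, was the only other STAT gene at least 2-fold higher in ES cells, with 609.32 and 196.86, or 3.1-fold (2.88 to 3.33). *Stat5b* had 36.92 in ES cells and 256.27 in forebrain, a 6.94-fold difference (5.93 to 8.2), *Stat5a* was 2.75-fold (2.36 to 3.22) and *Stat4* 2.41-fold (1.96 to 2.97) higher in forebrain. *Stat5a* and *Stat5b* are similar in sequence, and reads may have been split between them.

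Within the SOCS family, which sums to 3032.74 in ES cells and 1426.95 in forebrain, *Socs3* held 65.7% in ES cells, the highest share, and followed 3 other members in forebrain. *Socs2*, an inhibitor best known from growth hormone signalling, was the other member counted as at least 2-fold higher in ES cells, with 310.55 and 57.32, 5.42-fold apart (4.97 to 5.91). *Socs6* (32.9%), *Socs4* (23.4%) and *Socs7* (18.1%) held most of the sum in forebrain. *Cish* and *Socs5* were at least 2-fold higher in forebrain, at 17.61 compared with 7.04 and at 104.16 compared with 51.29. This count of 2 was 0 with a pseudocount of 5, 1 with division by the upper quartile and 3 with division by the summed RPKM. Of all listed genes, 25.8% were at least 2-fold higher in forebrain. *Socs1*, the closest relative of *Socs3*, was low in both libraries, with 30.02 in ES cells and 14.77 in forebrain. Its ratio of 2.03 (1.14 to 3.7) lay just within the threshold on log2(RPKM + 1), and it was past the threshold with a pseudocount of 0.1.

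**Figure D3:**
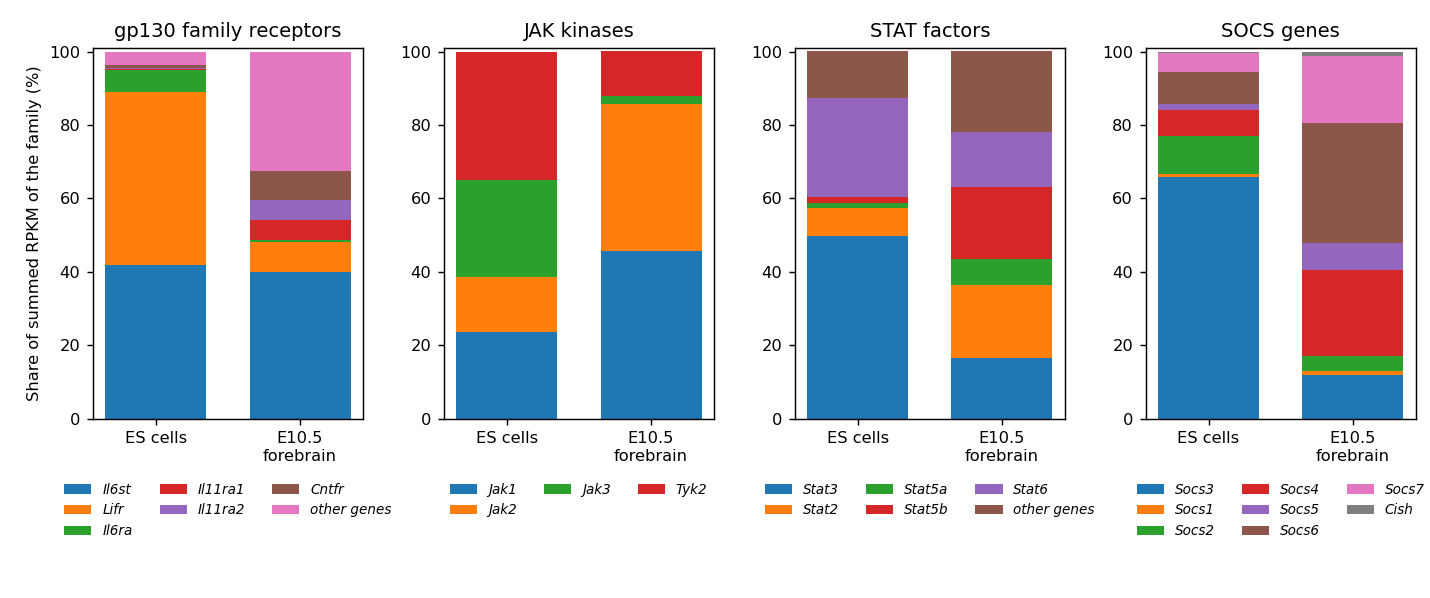
Share of the summed RPKM of each family (vertical axis, percent) held by each gene in ES cells and in forebrain, with 1 library per bar, for the gp130 family receptors, JAK kinases, STAT factors and SOCS genes, with the family members not named in the legend pooled as other genes. The share of *Il6st* is similar in both bars (41.9% and 39.9%), those of *Lifr*, *Stat3* and *Socs3* are larger in ES cells, and those of *Jak1* and *Jak2* are larger in forebrain.

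Inhibitors outside the SOCS family and the arm of the chain that does not use STAT3 were examined last. Of 7 such inhibitors, 2 were at least 2-fold higher in ES cells and 0 in forebrain, counts that became 1 and 3 when each library was divided by its summed RPKM. Over all listed genes the shares were 23.3% and 25.8%. *Ptpn6*, which encodes the phosphatase SHP1, had 725.9 and 140.32, 5.17-fold apart (4.67 to 5.74), and *Pias2*, of a family that inhibits STAT proteins in the nucleus, had 1642.81 and 808.43, 2.03-fold apart (1.96 to 2.11). *Pias3*, named as an inhibitor of STAT3, was 1.98-fold higher in forebrain (1.73 to 2.25), at 204.66 compared with 103.62, and *Pias1* was 1.86-fold higher there (1.7 to 2.04). The other arm that leaves gp130, from the phosphatase SHP2 to the MAP kinases, had 1 of 7 genes past 2-fold. Over all listed genes the share in either direction was 49.1%. The 1 gene was *Gab1*, a docking protein of SHP2, with 1331.42 in ES cells and 241.48 in forebrain, or 5.51-fold (5.2 to 5.85). *Ptpn11*, which encodes SHP2, was 1.73-fold (1.67 to 1.79), *Mapk3* 1.64-fold (1.45 to 1.87) and *Sos1* 2.01-fold (1.85 to 2.18) higher in forebrain, and *Sos1* lay just within the threshold on log2(RPKM + 1).

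The genes known to respond to LIF and STAT3 in ES cells were mostly higher in ES cells. Of 12 such genes, 9 were at least 2-fold higher in ES cells and 0 in forebrain, with a median log2 ratio of 3.69, compared with shares of 23.3% and 25.8% and a median of -0.01 over all listed genes. Several of them also belong to the pluripotency network, and the list was chosen with results of these data known, so it is not independent evidence of a direction. *Tfcp2l1*, a factor of naive pluripotency that the tables name *Tcfcp2l1*, had an RPKM of 3898.01 in ES cells and 5.26 in forebrain, 741-fold apart (571 to 964). *Nanog* had 4968.03 and 9.13, 544-fold apart (368 to 841). *Klf5* had 484.87 and 5.24, and *Gbx2*, which in the embryo is better known from the midbrain and hindbrain boundary, had 459.98 and 8.98. The 3 genes within 2-fold, named here after their values were seen, were *Pim1*, *Myc* and *Fos*. *Pim1*, a kinase gene induced by many cytokines, had 1270.71 and 719.68, *Myc* had 234.56 and 178.17, and the immediate early gene *Fos* had 140.93 and 248.65, the last one 1.76-fold higher in forebrain (1.53 to 2.04). These genes are used by many signals besides LIF. Over all 57 genes of the 8 lists beyond the 7 genes, 20 were at least 2-fold higher in ES cells, 10 in forebrain and 27 were within 2-fold, with a median log2 ratio of 0.42. Of these 20 genes, 9 were the response genes just described, so the pooled count is not independent evidence of a direction either. The shares over all listed genes were 23.3% in ES cells and 25.8% in forebrain, and with each library divided by its summed RPKM the counts were 18 and 17.

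**Figure D4:**
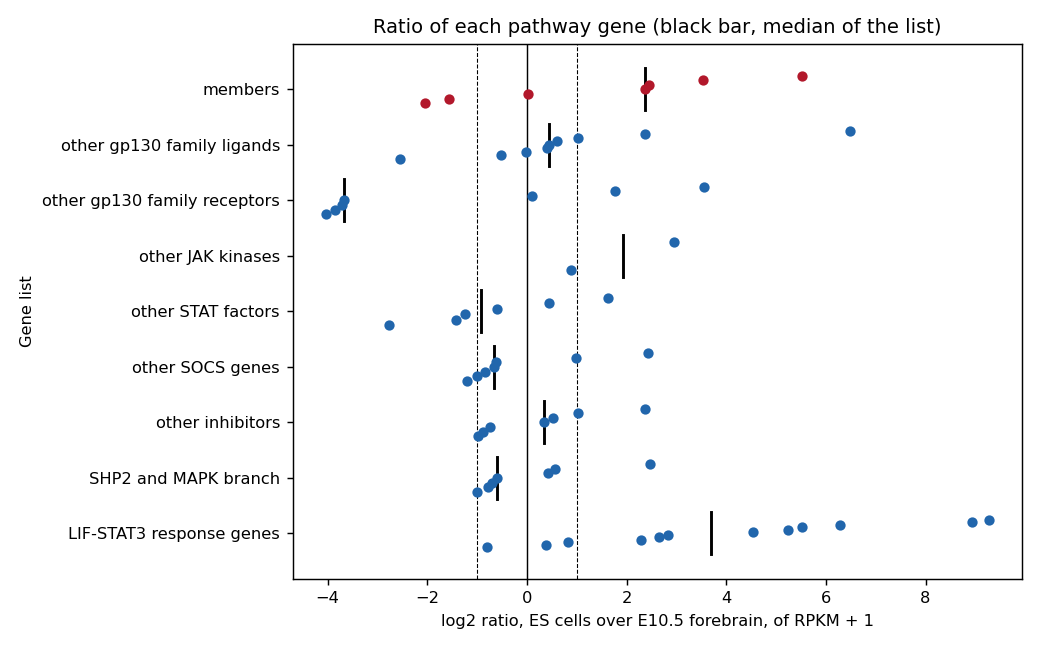
Log2 ratio of ES cells over forebrain on RPKM + 1 (horizontal axis) of each gene, by gene list (vertical axis), with 1 library per sample type; red points are the 7 genes, blue points the other lists, black bars the median of each list and dashed lines 2-fold differences. The LIF and STAT3 response genes have the highest median, 3.69, and the other receptors of the gp130 family the lowest, -3.68.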

How the data were processed

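Strand-specific libraries of rRNA-depleted total RNA from 1 sample of ES cells and 1 of E10.5 forebrain were sequenced with single-end reads. Mapping to NCBIM37 (mm9) was done by the authors in the HTSstation pipeline, and they deposited 1 value per gene, named RPKM in the file headers. The submitters' processing notes name Bowtie 0.12.7. The exact scaling and the strand setting of the counting are not given in the sources used here, and the read length is given as 100 bp in the labels but differently in the methods.

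RPKM values were used as deposited. All listed genes matched GENCODE vM1 of the same build by identifier and coordinates, and merged exonic lengths were computed from it. The RPKM added by 1 read, times exonic kb, was estimated on genes of 300 to 2500 exonic bases as 1.222 (ES cells) and 0.819 (forebrain). Of low values, 59.3% and 60.7% lay within 0.1 of a whole read, where 20% would by chance. The rest may include reads split between genes. Reads were rounded to whole numbers, and values at or below 3 reads were taken as the limit of detection.

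Log2 ratios used a pseudocount of 1, and a gene was counted as different at 2-fold. No p-value was computed. Percentiles give the share of listed genes with a lower value. The step estimate and the intervals were tested on simulated Poisson reads in whole numbers. The simulation lacked the values away from whole reads seen in the data, so it cannot show that the intervals hold here. Copies of the longest transcripts were searched in the genome with blastn 2.17.0 (at least 95% identity over 50 bases). They covered 2.96% of *Stat3* and 1.13% of *Il6st* and 0% of the other 5 genes.

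The genes, lists and thresholds were chosen with earlier results of these data known. Named were all 7 genes, the genes of the 4 families by their share, the 4 genes with the largest ratio in other lists (with an RPKM of 5 or more in a sample), the highest markers and those at 0, and the closest gene to each member in both values. Some genes within the rule are not reported here. Alternatives covered pseudocount, scaling, fold, low values and gene length. Computations used pandas 2.3.3, scipy 1.17.1 and numpy 2.4.6 under Python 3.11.15, with matplotlib 3.10.9 for the plots.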

Additional observations from a re-analysis of the deposited data

How the results depend on the processing

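No paired analysis was possible because each sample type has 1 library, and for the same reason no library could be left out. Over the alternatives of pseudocount and scaling, the log2 ratio ranged from 3.5 to 7.54 for *Lif*, from 2.18 to 2.93 for *Lifr*, from 2.1 to 2.85 for *Stat3*, from 3.26 to 4.01 for *Socs3*, from -1.85 to -1.09 for *Jak1* and from -2.32 to -1.57 for *Jak2*. For *Il6st* it ranged from -0.26 to 0.5, so its direction depends on the scaling. The median over the 7 genes was 2.1 with division by the sum of RPKM, 2.46 by the upper quartile, 2.28 by the reads on genes and 2.85 by the median of protein-coding genes. Division by the sum of RPKM and by the median of protein-coding genes shifted log2 ratios by -0.27 and 0.48, and by less for genes with low values, since the pseudocount is added (*Lif* 5.37 and 5.8, compared with 5.53). With a 3-fold threshold, 1 gene in place of 2 was higher in forebrain. With division by the sum of RPKM, 17 genes of the wider lists in place of 10 were at least 2-fold higher in forebrain.

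Shares within families depend on the length used. From reads without correction for length, in ES cells and forebrain, they were 29.6% and 50.7% for *Il6st*, 66.1% and 20.9% for *Lifr*, 31.1% and 55.0% for *Jak1*, 13.6% and 33.7% for *Jak2*, 66.9% and 27.7% for *Stat3* and 41.6% and 5.14% for *Socs3*. With the longest coding transcript, an alternative chosen after seeing the data, they were 40.3% and 36.2% for *Il6st*, 48.6% and 8.04% for *Lifr*, 29.3% and 55.0% for *Jak1*, 12.5% and 32.8% for *Jak2*, 58.1% and 21.6% for *Stat3* and 59.5% and 11.3% for *Socs3*. Equal reads on protein-coding genes other than red blood cell markers, also chosen after seeing the data, left the counts of 4 and 2 genes as they were. Depth limits *Lif* in forebrain, which rests on 1 read.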

Other observations

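For each of the 7 genes, the other protein-coding gene with the closest pair of values was looked up, by Euclidean distance on log2(RPKM + 1) over the 2 libraries. With 2 libraries, such likeness describes a level and a ratio only. The closest gene to *Il6st* was *Cept1*, with an RPKM of 940.33 in ES cells and 924.89 in forebrain (distance 0.012). *Jak2* was closest to *Zfp90* (118.83 and 509.32, distance 0.029), *Jak1* to *Golga1* (193.82 and 581.35, distance 0.04) and *Stat3* to *Aldh4a1* (1113.01 and 210.74, distance 0.039). *Lifr* was closest to *Ddx3y* (992.71 and 194.56, distance 0.085). *Socs3* and *Lif* had no gene as close. The nearest to *Socs3* was *Renbp*, with 2186.69 and 167.66 (distance 0.14), and the nearest to *Lif* was *Gm281*, with 56.42 and 0.33 (distance 0.17).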
